A study of Sus scrofa with 2 samples.

Results

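Proteoglycans and glycoproteins of cartilage and of connective tissue were followed in the stria vascularis (SV) of the pig cochlea through 10 genes: ACAN, COMP, MATN1, HAPLN1, DCN, LUM, BGN, FMOD, OGN and OMD. A feature was taken as a member when its symbol was one of these names. Each of the 10 genes had 1 feature among the 27622 features measured. RNA-seq compared the genotypes MITF R/r and MITF r/r, with 1 library each. R is the wild-type allele of MITF, the transcription factor that directs the melanocyte lineage, and r is the mutant allele found in albino, hearing-impaired Rongchang pigs. R/r is the heterozygote and r/r the homozygote, so both genotypes carry the r allele, and no R/R library was analysed here. The labels give postnatal day 1 for both libraries, whereas the study describes the RNA-seq as done at an embryonic stage; which is right cannot be told from the values. The tissue was the lateral wall of the cochlea with the SV, which borders on the spiral ligament, bone and cartilage of the capsule. Where a library is called an SV below, the whole dissection is meant, so its levels are not those of the SV alone. How many animals gave RNA to a library is not given in the sources used here.

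Aggrecan (ACAN) is the large proteoglycan of cartilage, and it is bound to hyaluronan by the link protein HAPLN1, which lets the matrix hold water. COMP and the matrilins connect collagen fibrils with the rest of the cartilage matrix. Decorin (DCN), biglycan (BGN), lumican (LUM), fibromodulin (FMOD), osteoglycin (OGN) and osteomodulin (OMD) are small leucine rich proteoglycans (SLRPs), which sit on collagen fibrils and set their width and spacing in ligament, bone and the cochlear wall.

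Levels are given as RPKM, a read count corrected for gene length and library depth, so that genes of different length can be set side by side. The smallest lengths that fit the values were 1401 bases for OGN, 5621 for OMD, 7081 for ACAN, 683 for COL2A1 and 321 for EPYC. Levels of different genes depend on the lengths used, which were not checked. The ratio of a gene between the libraries does not. Library totals worked back from these values were 15829244 reads for R/r and 14258672 reads for r/r, so that 1 read on 1 kb is 0.0632 RPKM in R/r and 0.0701 RPKM in r/r. Differences are given as the log2 ratio of RPKM, r/r over R/r, with a 95% exact interval on the reads that covers counting error only. With no replicate no test was made: the values compare these libraries, and genotype, animal and dissection cannot be told apart. A feature was compared when it was above 0 in both libraries and at 1 RPKM or more in at least one, which held for 16331 features and for 8 of the 10 genes. MITF itself had 3 features, of which the most abundant, ENSSSCG00000011513, had 51.7 RPKM in R/r and 37.8 RPKM in r/r, a log2 ratio of -0.45 (-0.75 to -0.16). The study reports that r/r pigs lose MITF-M, the melanocyte form of the transcript, and keep the other forms it examined. It also states that RPKM of the gene cannot separate these forms, so the ratio does not measure the loss of MITF-M.

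The SLRPs other than OMD stood well above ACAN, HAPLN1, COMP and MATN1 in both SVs, and OMD lay between HAPLN1 and ACAN. In the R/r SV the order by RPKM was DCN, BGN, FMOD, OGN, LUM, HAPLN1, OMD, ACAN, MATN1 and COMP, from 214 RPKM for DCN to 0.0257 RPKM for COMP. In the r/r SV DCN was again first, at 153 RPKM, followed by LUM, BGN, OGN, FMOD, HAPLN1, OMD, ACAN, MATN1 and COMP. Of the 10 genes, 7 held the same place in both orders. LUM held place 5 in R/r and place 2 in r/r. Some neighbours in these orders could not be separated by counting error: FMOD and OGN, OGN and LUM, HAPLN1 and OMD, and MATN1 and COMP in R/r, and OGN and FMOD and again MATN1 and COMP in r/r. The steps between LUM and HAPLN1 in R/r, 6.49 times, and between FMOD and HAPLN1 in r/r, 5.55 times, divided abundant from moderate genes. Together the 10 genes summed to 722 RPKM in R/r and 637 RPKM in r/r, and took 0.143% and 0.126% of the reads of the library.

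**Figure D1:**
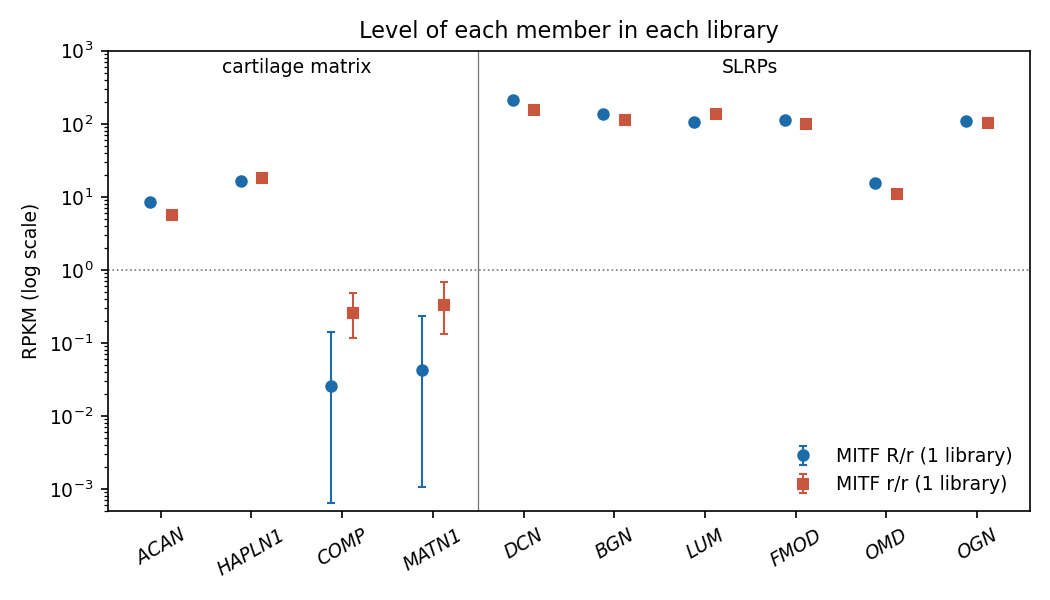
RPKM of each of the 10 genes (log axis) in the MITF R/r library (circles) and the MITF r/r library (squares), with 95% Poisson intervals that cover counting error only; the dotted line is 1 RPKM. DCN, BGN, LUM, FMOD and OGN lie near 100 RPKM or above, OMD, HAPLN1 and ACAN between 5.56 and 17.9 RPKM, and COMP and MATN1 below 1 RPKM in both libraries.

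Of the 8 genes compared, 0 were at least 2-fold lower in r/r, against 2.2% of the 16331 features, and 0 were at least 2-fold higher, against 1.78%. Lower values in r/r were found for 6 of the 8 genes, against 53.3% of the features. For the same 6 genes (ACAN, OMD, DCN, BGN, FMOD and OGN) the interval lay wholly below 0, against 14.5% of the features. The interval lay wholly above 0 for 1 gene, LUM, against 11.2% of the features, and crossed 0 for HAPLN1. With the libraries scaled to the median log2 ratio, a setting chosen after seeing the data, the interval of OGN reached 0, that of HAPLN1 lay above 0, and the counts were 5 below and 2 above. Scaled to the upper quartile, 6 lay below and 2 above. Library totals of double size made the reads of as many mitochondrial genes whole, and with them, a setting added after seeing the data, the intervals would be narrower: HAPLN1 would lie above 0 (0.03 to 0.22), with 6 genes below and 2 above, against 22% and 17.5% of the features. These genes had many reads, from 1510 for ACAN to 10877 for FMOD over both libraries, and the median feature had 449 reads. Among the 3888 features with at least 1510 reads, 23.8% had an interval below 0 and 22.8% one above 0. The median log2 ratio was -0.23 over the 8 genes and -0.02 over the features compared. The lists below can be read against shares of all features: 53.3% lower, 2.2% at least 2-fold lower and 1.78% at least 2-fold higher. A small difference of levels in bulk RNA can come from fewer cells of a type or from less RNA per cell, and these cannot be told apart here.

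**Figure D2:**
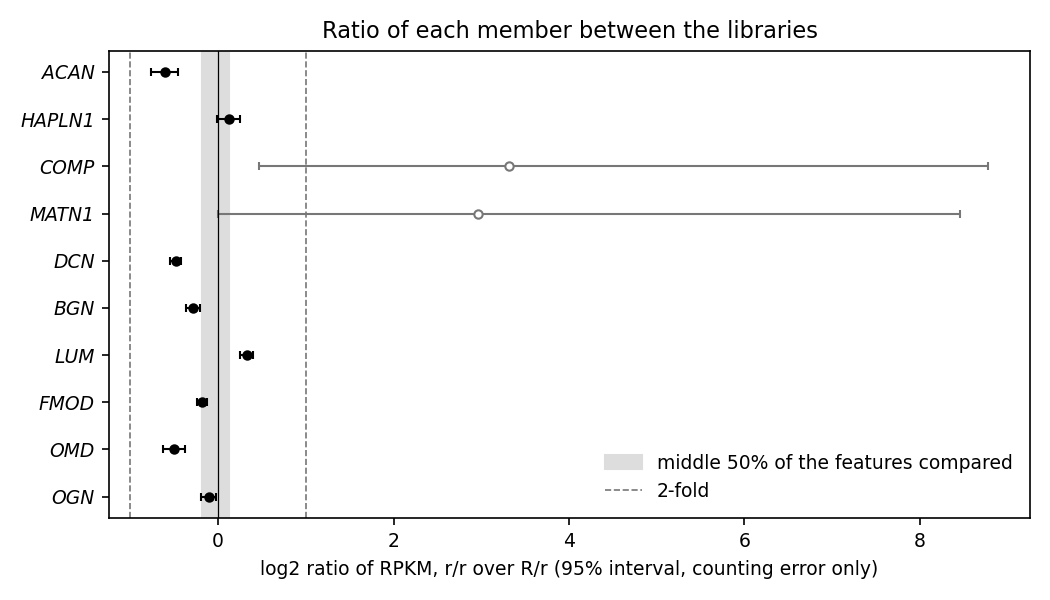
Log2 ratio of RPKM, r/r over R/r, for each gene, with its 95% interval from the reads (counting error only); open grey circles are COMP and MATN1, which were under 1 RPKM in both libraries. The grey band holds the middle 50% of the features compared, and the dashed lines mark 2-fold; the 8 genes compared lie between -0.61 (ACAN) and 0.33 (LUM), inside the lines.

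ACAN (ENSSSCG00000001832), the core protein that carries the chondroitin and keratan sulfate chains of cartilage, had 8.47 RPKM in R/r and 5.56 RPKM in r/r. It was 1.52-fold lower in r/r, the lowest log2 ratio of the 8 genes at -0.61 (-0.76 to -0.46), from 949 and 561 reads. A lower ratio was found for 5.79% of all features compared, and for 1.16% of those with as many reads. The level of ACAN was above that of 54.9% of the features above 0 in R/r and of 46.5% of those above 0 in r/r, so its transcript was of middling abundance in either SV. The library kit does not mark strand, so reads of a gene and of an antisense partner cannot be told apart. In RefSeq (Sscrofa11.1) the spans of ACAN and HAPLN3, a link protein gene next to it, overlap, and the span of HAPLN1 overlaps a locus without a name. HAPLN3 had 8.06 and 7.28 RPKM in R/r and r/r, a log2 ratio of -0.15 (-0.33 to 0.04).

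HAPLN1 (ENSSSCG00000014137), the link protein of cartilage, had 16.5 RPKM in R/r and 17.9 RPKM in r/r. It was slightly higher in r/r, but the interval of its log2 ratio, 0.12 (-0.01 to 0.26), included 0. The transcript of the link protein thus stood at 1.95 times the level of ACAN in R/r and at 3.23 times in r/r. The log2 ratios of HAPLN1 and ACAN were 0.73 apart (0.53 to 0.93), beyond counting error. VCAN, versican, the relative of aggrecan made in many soft tissues, had 14.0 RPKM in R/r and 17.1 RPKM in r/r, a log2 ratio of 0.29 (0.19 to 0.40). VCAN and HAPLN1 are adjacent genes, and both were more abundant than ACAN in each SV. BCAN, the aggrecan relative of the nervous system, had 0.101 and 0.168 RPKM from 6 and 9 reads, and HAPLN2 was listed at 0 in both SVs. A gene of a list is said to have a feature when a feature bears its symbol, and a gene without one may be among the 9452 features that have no symbol. Of the 12 genes listed as hyalectans, link proteins and their hyaluronan partners, 8 had a feature and 6 were compared, of which 4 were lower and 2 higher in r/r, with a median log2 ratio of -0.21, or 0.12 with a minimum of 10 RPKM. CD44, the hyaluronan receptor, had 19.2 and 15.1 RPKM in R/r and r/r.

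COMP (ENSSSCG00000013916), a pentameric thrombospondin that binds collagens, was close to absent. It had 0.0257 RPKM in R/r, from 1 read, with a 95% Poisson interval of 0.000651 to 0.143, and 0.257 RPKM in r/r, from 9 reads (0.117 to 0.487). MATN1 (ENSSSCG00000022554), matrilin 1, a marker of hyaline cartilage, had 0.0424 RPKM in R/r, also from 1 read (0.00107 to 0.236), and 0.329 RPKM in r/r, from 7 reads (0.132 to 0.678). Both genes were higher in r/r, but on a handful of reads. The log2 ratio was 3.32 (0.47 to 8.77) for COMP and 2.96 (-0.00 to 8.45) for MATN1. With 0.1 RPKM added to each level it was 1.51 for COMP and 1.59 for MATN1, and with 1 RPKM added 0.29 and 0.35, so these ratios rest on the treatment of levels near 0. Of 112 features with as many reads as COMP over both libraries, 2 had at most 1 read in R/r, or 1.79%, and of 153 features with as many reads as MATN1, 11 did, or 7.19%. The reads given are the smallest whole numbers that fit both values, and the true ones can be a common multiple.

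The relatives of COMP and MATN1 had higher levels, some far higher and others still low. MATN4, the matrilin found widely outside cartilage, had 336 RPKM in R/r and 289 RPKM in r/r. MATN2 had 36.2 and 25.7 RPKM, and MATN3, which is made in cartilage, had 2.03 and 1.39 RPKM in R/r and r/r. The matrilin genes therefore ran from over 100 RPKM for MATN4 to under 1 RPKM for MATN1. Of the thrombospondins, THBS1 had 112 and 133 RPKM, THBS2 had 10.6 and 18.0 RPKM, and THBS3 had 0.875 and 0.839 RPKM. THBS4, a thrombospondin of tendon and muscle, had 25.3 RPKM in R/r and 11.5 RPKM in r/r, and its log2 ratio was -1.14 (-1.29 to -0.99). Of the 6 genes compared in the thrombospondin and matrilin list, 4 were lower and 2 higher, with a median log2 ratio of -0.36, and THBS4 alone was at least 2-fold apart. The median was -0.06 with no minimum and -0.22 with a minimum of 5 or 10 RPKM.

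Low COMP and MATN1 stood beside very high levels of cartilage collagens. COL2A1, the chief collagen of cartilage and of the otic capsule, had 1773 RPKM in R/r and 1474 RPKM in r/r. COL9A1 had 1684 and 1440 RPKM, COL9A2 had 1776 and 1261 RPKM, and COL11A2 had 2825 and 2666 RPKM. Collagens II, IX and XI are also made by the fibrocytes of the spiral ligament and by the supporting cells under the tectorial membrane. COL2A1 was at 209 times the level of ACAN in R/r and 265 times in r/r. ACAN was lower in r/r by more than COL2A1, whose log2 ratio was -0.27 (-0.30 to -0.24), and the difference of 0.34 between the log2 ratios (0.19 to 0.50) was beyond counting error.

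Of 21 genes listed for cartilage matrix, 17 had a feature, and their summed level was 9240 RPKM in R/r and 8073 RPKM in r/r, led by COL11A2. Among the 14 compared, 9 were lower and 5 higher in r/r, with a median log2 ratio of -0.07. CYTL1 was at least 2-fold lower, with 1.55 and 0.344 RPKM, but rested on 5 reads in R/r and 1 read in r/r (log2 ratio -2.17, -7.73 to 0.99). PRG4, the lubricin of joint surfaces, was listed at 0 in both SVs, and CILP, a protein of articular cartilage, had 1.60 and 1.55 RPKM in R/r and r/r. Other genes of the list were abundant: CHAD, chondroadherin, had 120 and 121 RPKM, MIA had 464 and 520 RPKM, and SCRG1 had 57.2 and 76.6 RPKM in R/r and r/r. The genes of cartilage matrix thus stood at unlike levels, with collagens high, ACAN and HAPLN1 moderate and COMP and MATN1 near 0.

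The hypertrophic cartilage list had 6 of 7 genes compared, 5 lower and 1 higher, and summed to 589 RPKM in R/r and 425 RPKM in r/r with a median log2 ratio of -0.31. Its most abundant gene was IBSP, a bone protein, while COL10A1, the collagen that defines hypertrophic cartilage, had 0.178 and 0.264 RPKM from 6 and 8 reads. Chondrogenic factors summed to 98.3 and 86.9 RPKM in R/r and r/r. Of 11 such genes 9 had a feature, and each of the 5 compared was lower in r/r, against 53.3% of the features. For 2 of the 5 the interval lay below 0, against 14.5% of the features. The median log2 ratio of these factors was -0.31, or -0.16 with a minimum of 5 or 10 RPKM. SOX9, which switches on COL2A1 and ACAN, was the most abundant of them at 83.7 and 74.8 RPKM, with a log2 ratio of -0.16 (-0.22 to -0.10). TRPS1 had the lowest ratio, -0.63, from 12 and 7 reads, and FOXA2 was listed at 0 in both SVs. The highest ratio was that of SOX5, -0.16 (-0.98 to 0.65), with 6.18 RPKM in R/r and 5.53 RPKM in r/r.

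Of the 6 SLRPs among the members, LUM was higher in r/r and the other 5 were lower. DCN (ENSSSCG00000000915), decorin, which binds collagen and transforming growth factor beta, had 214 RPKM in R/r and 153 RPKM in r/r. It was 1.40-fold lower in r/r, with a log2 ratio of -0.48 (-0.55 to -0.42). A lower ratio was found for 8.32% of the features compared, and for 2.62% of the 458 features with at least as many reads. DCN ranked 365 among all features in R/r and 524 in r/r, the highest rank of the 10 genes in either SV.

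BGN (ENSSSCG00000012766), biglycan, the closest relative of decorin, had 138 RPKM in R/r and 113 RPKM in r/r. Its log2 ratio of -0.28 (-0.37 to -0.20) was less far below 0 than that of DCN, by 0.20 (0.09 to 0.30). As a result DCN was at 1.56 times the level of BGN in R/r and at 1.36 times in r/r. The sum of these class I genes was 352 RPKM in R/r and 267 RPKM in r/r. ASPN, asporin, the third class I gene, was far less abundant, with 6.15 and 6.48 RPKM and a log2 ratio of 0.07 (-0.19 to 0.33). ECM2, which shares the leucine rich repeats, had 264 and 254 RPKM in R/r and r/r, more than DCN in each SV, with a log2 ratio of -0.06.

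LUM (ENSSSCG00000000916), lumican, a keratan sulfate proteoglycan that limits the width of fibrils, had 107 RPKM in R/r and 134 RPKM in r/r. It was 1.25-fold higher in r/r, with a log2 ratio of 0.33 (0.25 to 0.40). A higher ratio was found for 9.78% of the features compared, and for 3.81% of the 708 features with at least as many reads. FMOD (ENSSSCG00000015270), fibromodulin, which binds the same region of collagen as lumican, went the other way, with 113 RPKM in R/r and 99.7 RPKM in r/r. The log2 ratio of FMOD was -0.18 (-0.24 to -0.13), and it differed from that of LUM by -0.51 (-0.60 to -0.42). In R/r, FMOD and LUM were at nearly the same level, 1.06 to 1, whereas in r/r LUM was at 1.35 times the level of FMOD.

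OMD (ENSSSCG00000008073), osteomodulin, a keratan sulfate proteoglycan made by osteoblasts and odontoblasts, had 15.6 RPKM in R/r and 11.1 RPKM in r/r. It was 1.41-fold lower in r/r, with a log2 ratio of -0.50 (-0.62 to -0.38), and 7.97% of the features had a lower ratio. OGN (ENSSSCG00000030143), osteoglycin, the class III member, had 109 RPKM in R/r and 102 RPKM in r/r. OGN was nearly level between the SVs, with a log2 ratio of -0.10 (-0.19 to -0.02), and 35.1% of the features had a lower one. By RPKM, OGN was 6.97 times as abundant as OMD in R/r and 9.17 times in r/r. Their reads were closer, 2419 and 1392 in R/r and 2028 and 887 in r/r, since the length for OMD was greater.

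In order of their log2 ratios the 8 genes ran ACAN, OMD, DCN, BGN, FMOD, OGN, HAPLN1 and LUM. Among neighbours in this order, ACAN and OMD, OMD and DCN, and FMOD and OGN did not differ beyond counting error, while the other neighbours did. Over all 28 pairs of the 8 genes, the log2 ratios of 24 pairs differed beyond counting error and those of 4 pairs did not. The ratios were thus unlike by more than counting error in most pairs. All 8 genes had many reads, and so narrow intervals. The share over pairs of other features with as many reads was not worked out. The count is therefore not read as a trait of these genes, and variation between animals was not measured.

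**Figure D3:**
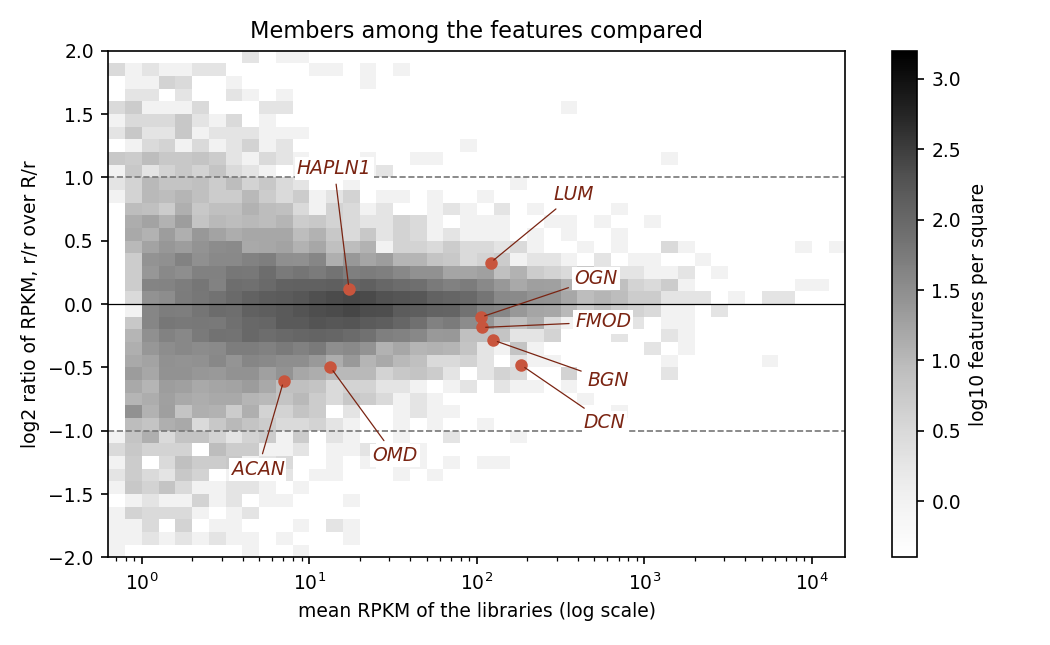
Log2 ratio of RPKM, r/r over R/r, against the mean RPKM of the libraries (log axis) for the features compared, as counts in squares (grey scale), with the 8 genes in red; 130 features more than 4-fold apart lie outside the axis. DCN and LUM sit below and above the dense part of the cloud at over 100 RPKM.

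The SLRPs outside the 10 genes gave a wider picture. EPYC, epiphycan, a class III SLRP first known from the growth plate, had 1676 RPKM in R/r and 2234 RPKM in r/r, with a log2 ratio of 0.41 (0.37 to 0.46). It made up 55.8% of the summed RPKM of the SLRP list in R/r and 64.9% in r/r. DCN took 7.13% and 4.46% of that sum, and LUM 3.56% and 3.89%. Without EPYC the shares in R/r and r/r were 16.1% and 12.7% for DCN and 8.05% and 11.1% for LUM. All 18 SLRP genes listed had a feature, and 16 were compared, of which 9 were lower and 7 higher in r/r, 0 at least 2-fold apart, with a median log2 ratio of -0.08, or -0.02 with no minimum RPKM. The 12 SLRP genes other than the members had a median of 0.05 over the 10 compared, of which 4 were lower, while the 6 SLRP members had -0.23, of which 5 were lower.

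PRELP, which anchors basement membranes to the matrix beneath, had 123 RPKM in R/r and 91.0 RPKM in r/r, a log2 ratio of -0.43 (-0.52 to -0.34). PODNL1 had the lowest ratio of the list, -0.93 (-1.33 to -0.53), with 12.3 and 6.46 RPKM. KERA, keratocan, the corneal SLRP, had 28.7 and 35.7 RPKM, while OPTC, the SLRP of the eye, and NYX were below 1 RPKM in both SVs. The remaining genes, CHADL, TSKU and PODN, had between 20.6 and 34.6 RPKM in either SV, and their log2 ratios lay from -0.12 to 0.15.

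Several of the genes lie next to each other, by the gene order of RefSeq (Sscrofa11.1), and neighbours did not always share a direction. DCN, LUM, KERA and EPYC follow each other on a chromosome. DCN was lower in r/r (-0.48), whereas LUM (0.33), KERA (0.31, -0.00 to 0.63) and EPYC (0.41) were higher, with BTG1 on the far side of DCN at 0.18. The log2 ratio of LUM was 0.81 above that of DCN (0.71 to 0.90), and LUM was at 0.499 times the level of DCN in R/r and 0.874 times in r/r. KERA and LUM did not differ beyond counting error, with a difference of -0.01 (-0.34 to 0.31). EPYC was above LUM by 0.09 (0.00 to 0.17), just beyond counting error. DCN was thus the one gene compared in this row that was lower in r/r, with higher values on both sides of it.

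OGN, OMD, ASPN and ECM2 form another row. The lowest log2 ratio there was that of OMD, at -0.50, between OGN at -0.10 and ASPN at 0.07. OGN and OMD lie within the span of CENPP, a centromere protein gene, which had 1.57 and 1.19 RPKM from 19 and 13 reads. FMOD and PRELP are adjacent, and both were lower in r/r, with a log2 ratio for PRELP that differed from that of FMOD by -0.25 (-0.35 to -0.14). Next to PRELP, OPTC had 0.246 and 0.382 RPKM, under 1 RPKM in both SVs. The flanking genes outside the lists were chosen for their position after the values of the 10 genes had been seen.

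**Figure D4:**
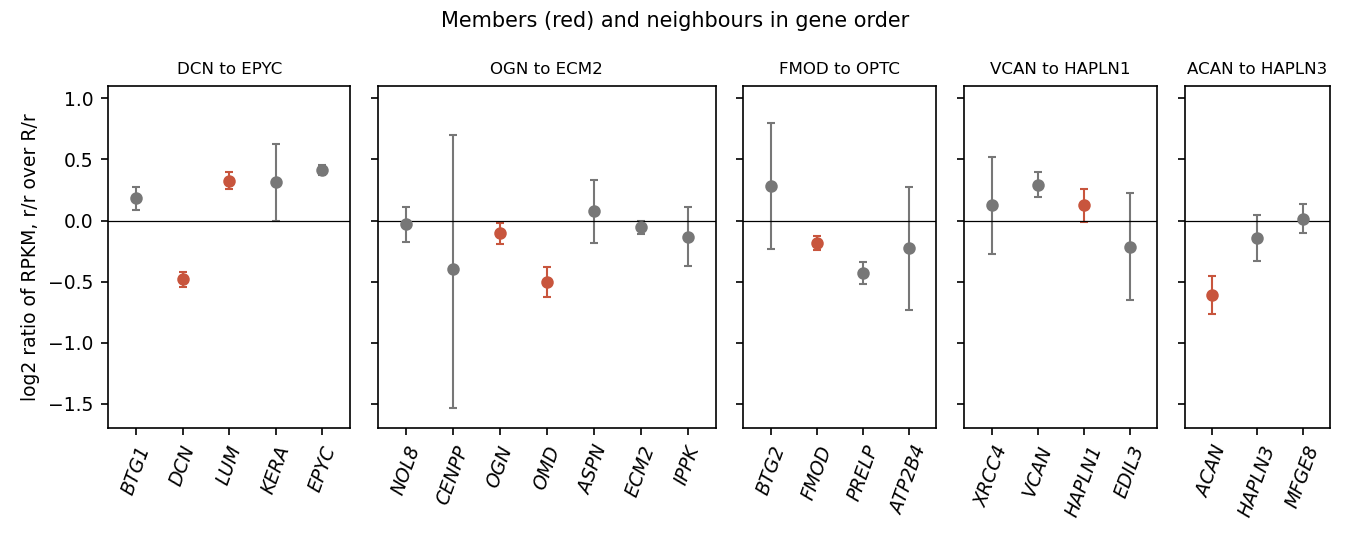
Log2 ratio of RPKM, r/r over R/r, with 95% intervals from the reads (counting error only), for members (red) and their neighbours (grey) in the gene order of RefSeq; distances are not to scale, and genes under 1 RPKM in both libraries are not drawn. DCN lies at -0.48 and its neighbours LUM, KERA and EPYC between 0.31 and 0.41; OMD lies at -0.50 between OGN and ASPN.

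SLRPs act on fibrillar collagens. Of 18 genes of fibrillar collagens and other matrix partners, all were compared, of which 13 were lower and 5 higher, or 72.2% lower against 53.3% of the features, with a median log2 ratio of -0.21, and their summed level was 891 RPKM in R/r and 693 RPKM in r/r. COL1A2, the most abundant of them, had 277 and 180 RPKM, a log2 ratio of -0.62 (-0.65 to -0.59). COL1A1, the other chain of collagen I, was at least 2-fold lower, with 89.1 and 38.5 RPKM, and COL6A2 had the highest ratio, 0.49. The log2 ratio of COL1A2 differed from that of DCN by -0.14 (-0.21 to -0.06). LUM was at 0.386 times the level of COL1A2 in R/r and 0.743 times in r/r. LUM was thus higher in r/r, and both collagen I chains were lower.

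Enzymes that build the sugar chains were followed as well. For chondroitin and dermatan sulfate synthesis, 25 of 28 genes had a feature and 23 were compared, 17 lower and 6 higher in r/r, 0 at least 2-fold apart, with a median log2 ratio of -0.09. Their summed level was 496 RPKM in R/r and 469 RPKM in r/r. DSE, which turns chondroitin into dermatan sulfate on decorin and biglycan, led the list at 84.8 and 80.0 RPKM. XYLT1, which starts the chains, had the lowest ratio at -0.58 (-1.34 to 0.16), and CHST3, a sulfotransferase of chondroitin, the highest at 0.34 (0.23 to 0.44). For keratan sulfate, 6 of 9 genes had a feature and 5 were compared, 3 lower and 2 higher, with a median of -0.04, or 0.01 with a minimum of 5 or 10 RPKM, and the list summed to 80.6 and 80.5 RPKM in R/r and r/r. B4GALT4 was its most abundant gene and had its highest ratio, 0.16, and CHST1 had the lowest, -0.40 (-0.71 to -0.09). SLC35B2, a carrier of the sulfate donor that cells in general need, was listed at 0 in both SVs.

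Proteases and inhibitors of these proteins summed to 1824 RPKM in R/r and 1604 RPKM in r/r, with 15 of 17 genes having a feature and 12 compared, 7 lower and 5 higher, and a median log2 ratio of -0.04. The median was -0.17 with a minimum of 5 or 10 RPKM and -0.02 with none. MMP2 was the most abundant, at 863 and 765 RPKM. A2M, a broad inhibitor of proteases, was the gene of the list at least 2-fold apart, with 168 RPKM in R/r and 70.3 RPKM in r/r, a log2 ratio of -1.26 (-1.33 to -1.18). ADAMTS20 had the highest ratio, 0.18 (0.02 to 0.34).

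The labelled tissue was checked against marker genes. Marginal cell genes were abundant, with ATP1B2 at 915 and 522 RPKM, the lowest ratio of its list, and the list at 1780 and 1359 RPKM in sum in R/r and r/r; 7 of 10 genes had a feature, all 7 were compared, 5 lower and 2 higher, and the median log2 ratio was -0.31, with CLDN8 highest at 0.29. For basal cells, 2 of 5 genes had a feature, both lower, summing to 912 and 777 RPKM with a median of -0.13, led by CLDN11 at 840 and 706 RPKM. The other, TJP1, was level, with 71.7 and 71.5 RPKM and a log2 ratio of -0.01 (-0.09 to 0.07). Of 12 intermediate cell and melanocyte genes, 11 had a feature under the symbol listed. Their sum was 363 RPKM in R/r and 90.2 RPKM in r/r. Of 9 compared, 8 were lower, against 53.3% of the features, and 6 at least 2-fold lower, against 2.2%. The median of the list was -4.92. The 6 genes were TRPM1, DCT, KCNJ13, TYR, PMEL and EDNRB, with log2 ratios from -10.64 (TRPM1, 1 read in r/r, -15.95 to -8.16) to -3.34 (EDNRB), while KIT had the highest, 0.02, with 43.6 and 44.2 RPKM in R/r and r/r. SOX10 had 5.20 and 4.50 RPKM. KCNJ10, the potassium channel of intermediate cells, was listed as KIR1.2 and is not in these counts and sums, and it had 20.01 RPKM in R/r and 5.97 RPKM in r/r. DCT led this list in R/r at 171 RPKM, but had 1.19 RPKM in r/r, where KIT led. MLANA was listed at 0 in r/r, and TYRP1, a defining pigment gene, had 1 read in each SV. Markers of the SV were thus found in both libraries, and of its intermediate cell markers some were far lower in r/r while KIT was level.

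Of 14 bone genes 12 had a feature and all 12 were compared, 11 lower and 1 higher in r/r, or 91.7% lower against 53.3% of the features, with a median log2 ratio of -0.70 and a summed level of 2820 RPKM in R/r and 1864 RPKM in r/r. SPARC led the list at 1759 and 1170 RPKM, and MEPE (-3.14, -4.83 to -1.82), COL1A1 and DMP1 (-1.11) were at least 2-fold lower, 3 of 12 genes against 2.2% of the features, while SPP1 was higher in r/r, at 0.27 (0.18 to 0.36). OMD, DCN and BGN are made by bone cells too, and ACAN by cartilage, and the part of a difference in bone or cartilage between the dissections in their values was not tested. The list of fibroblast and tendon genes had 13 of 15 with a feature and 11 compared, 7 lower and 4 higher, with a median of -0.16 and a sum of 638 and 538 RPKM. CLEC3B was its most abundant gene at 197 and 126 RPKM, TWIST2 had its lowest ratio at -0.99 (-2.23 to 0.15) and TNMD, a tendon gene, its highest at 0.37.

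Fibrocytes of the spiral ligament, which lie beside the SV, are a further source of matrix transcripts. Of 13 symbols listed for them, of which CA3 and CAR3 name the same gene, 8 had a feature and were compared, 2 lower and 6 higher in r/r, with a median log2 ratio of 0.23. Of 19 lists, 18 had a median below 0 and this 1 above, whereas 17 were below 0 with no minimum, 16 with a minimum of 5 RPKM and 14 with a minimum of 10 RPKM. Their sum was 9038 RPKM in R/r and 7695 RPKM in r/r, most of it COCH, cochlin, with 6826 and 4914 RPKM and a log2 ratio of -0.47 (-0.48 to -0.47). EMILIN2 had the highest ratio, 0.77. LUM was higher in r/r like most of this list, and DCN lower like COCH, and the part of fibrocytes in either was not tested.

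Muscle, blood and hair cells are further possible parts of the dissection. Muscle genes had 7 of 12 with a feature and 5 compared, 4 lower and 1 higher, with a median of -0.41, and summed to 45.5 and 45.4 RPKM. MYH1, at -2.74 (-3.37 to -2.17), and TNNT1, at -1.08 (-1.67 to -0.51), were at least 2-fold lower, whereas MYH7, the most abundant at 18.3 and 26.3 RPKM, had the highest ratio, 0.52. The median of the muscle list was -0.25 with no minimum or one of 5 RPKM and 0.21 with one of 10 RPKM. Blood genes, 6 of 8 with a feature, had 4 compared, all lower, with a median of -0.26, and summed to 1708 and 1438 RPKM, of which HBB was 1655 and 1393 RPKM. AHSP was nearest to 0 at -0.08 and ALAS2 lowest at -0.30. Genes of hair cells and of the organ of Corti had 11 of 12 with a feature and 8 compared, 5 lower and 3 higher, with a median of -0.33, MYO7A lowest at -0.70 and TECTA highest at 0.86. The median of this list turned positive with other minimums, 0.03 with none, 0.56 with 5 RPKM and 0.41 with 10 RPKM. Their sum was 1806 and 2428 RPKM, and without EPYC, which is an SLRP and a gene of cochlear supporting cells alike, 130 and 194 RPKM. The part of these tissues in the values of the 10 genes was not tested.

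**Figure D5:**
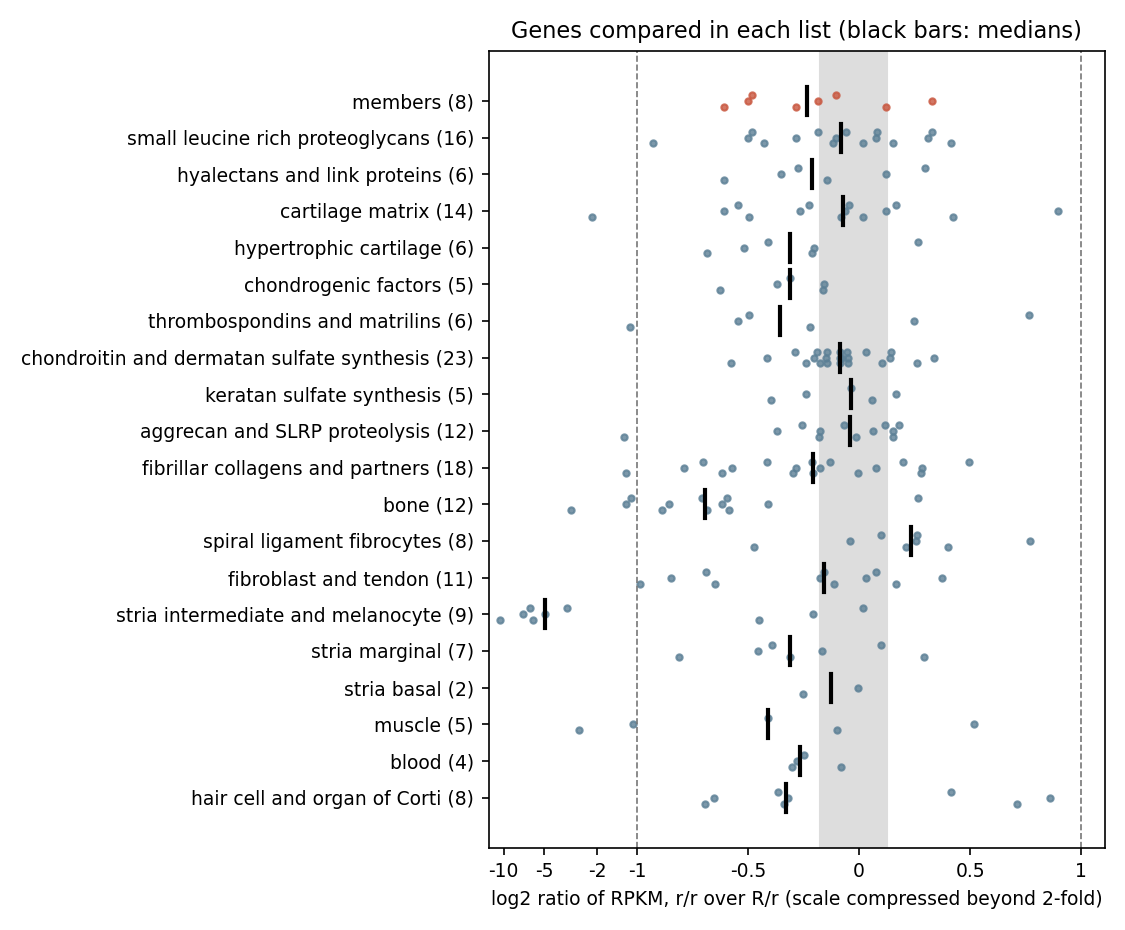
Log2 ratio of RPKM, r/r over R/r, for the genes compared in each list (number in brackets), with black bars at the medians, the grey band for the middle 50% of all features compared and dashed lines at 2-fold; the axis is compressed beyond 2-fold. The 10 genes (top, 8 compared) have a median of -0.23, the bone list -0.70, the intermediate cell and melanocyte list -4.92 and the fibrocyte list 0.23.

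The SLRP, hyalectan and cartilage lists hold 38 genes other than the members, of which 30 had a feature. Among the 25 of these that were compared, 15 were lower and 10 higher in r/r, with a median log2 ratio of -0.06 and a range from -2.17 (CYTL1) to 0.89 (CILP2), against -0.23 and a range from -0.61 to 0.33 for the 8 genes. The ranges overlap, and the difference was not tested. Other scalings of the libraries shifted log2 ratios by -0.04 to 0.02, which turned no member, whereas genes nearer to 0 (CHAD, KIT and TJP1 among those named) have no fixed direction.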

How the data were processed

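The authors dissected the lateral wall of the cochlea with the SV, made libraries with the Illumina TruSeq RNA kit, sequenced paired reads, aligned them with TopHat2 (2.0.7) to Sscrofa10.2 and deposited RPKM values for each gene. The counting program and gene annotation are not given in the sources used here. The table has 2 more columns of values, without headings, which were not used. Symbols came from the table (16376 features) or, where blank, an Ensembl name table (1794 features); 9452 features had none. Where a symbol had several features, the one of highest mean RPKM was used.

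Reads were worked back from RPKM as the smallest whole numbers that fit both libraries, within the rounding of the values, for all 20862 features above 0 in a library. The totals used make the reads of 10 of 12 mitochondrial genes whole at RefSeq lengths. Totals of double size did so for as many, and the smaller, which give the wider intervals, were used. The smallest length that fits, which sets the reads, equalled the RefSeq length for 7 of the 12. Where that length is too short, the reads are too few and the interval too wide. The shares of features with an interval below or above 0 rest on these reads too. Intervals are Clopper-Pearson intervals for ratios between libraries and between levels, Poisson intervals for levels, and exact conditional intervals for differences of log2 ratios. The steps were run on data simulated from the lengths and totals worked back, which cannot show whether those lengths and totals are right. No pseudocount was used. Members and lists were chosen with earlier results of these data known. Named genes are the members, genes of the SLRP, hyalectan, cartilage, thrombospondin and matrilin lists, MITF, and, of the other lists, the lowest and highest ratio, the most abundant gene and genes at least 2-fold apart. Where genes of a list are named for another reason (at or near 0, or known as a defining marker or partner), they were chosen after their values were seen. Genes also held by another list numbered 2 of 18 (SLRP), 2 of 12 (hyalectans), 6 of 21 (cartilage), 3 of 7 (hypertrophic), 3 of 9 (thrombospondins and matrilins), 3 of 18 (fibrillar collagens), 5 of 14 (bone), 3 of 13 (fibrocytes), 1 of 15 (fibroblast and tendon), 1 of 10 (marginal), 2 of 5 (basal) and 1 of 12 (hair cell), and 0 in the others. RefSeq (Sscrofa11.1) also gave gene order and overlap. Alternatives were pseudocounts, scalings, minimum RPKM values, a lower fold threshold, summed features, order by r/r and Ensembl features alone, and, added after seeing the data, calls by interval and intervals under each scaling and with totals of double size. Intervals came from scipy 1.17.1 and figures from matplotlib 3.10.9, with tables handled in pandas 2.3.3 and numpy 2.4.6 under Python 3.11.15.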

Additional observations from a re-analysis of the deposited data

How the results depend on the processing

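With 1 library per genotype, no pairing or leaving out of replicates could be done. The number of members lower in r/r (6 of 8) and the direction of every member held under pseudocounts of 0.1 and 1 RPKM, scaling to TPM, to the median or to the upper quartile, and scaling without the 100 most abundant features, and the median of the members stayed between -0.27 and -0.22. Of 60 values of single members, 1 left its interval: COMP with a pseudocount of 1, at 0.29. The intervals of COMP and MATN1 are wide, and MATN1 was at 0.35 with a pseudocount of 1 and at 1.59 with 0.1, and COMP at 1.51 with 0.1. The number of members at least 2-fold apart, 0, became 1 at 1.5-fold (ACAN) and 2 with no minimum RPKM (COMP and MATN1), by construction. The number of features at least 2-fold apart, 651, became 1771 at 1.5-fold, 1483 with no minimum, 178 and 87 with minimums of 5 and 10, 317 with a pseudocount of 1, and, chosen after seeing the data, 106 by intervals wholly beyond 2-fold; these act by construction, except the pseudocount, for which the cause was not tested. Of 171 list medians, 4 left the range set by the medians of their genes' interval ends (muscle, hair cell with 2 minimums, and melanocyte with a pseudocount of 1), and 7 had another sign, each under another minimum RPKM (hair cell, muscle, hyalectan and keratan sulfate lists). Other medians that differed by more than 1.5 times were, with minimums of 5 and 10 RPKM, those of the chondrogenic factors (-0.16), the proteolysis list (-0.17) and the thrombospondin list (-0.22), with no minimum those of the SLRP list (-0.02), the proteolysis list (-0.02) and the thrombospondin list (-0.06), with no minimum or one of 5 that of the muscle list (-0.25), and under TPM and median scaling those of the proteolysis list (-0.08 and -0.02) and the keratan sulfate list (-0.07 and -0.02). The settings for the remaining genes of the SLRP and cartilage lists were chosen after seeing the data. Depth limits COMP and MATN1, with 1 read each in R/r.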
